A study of Mus musculus with 2 samples.

Results

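Pairs of nucleosome calls lying closer together than the length of a nucleosome core were examined in mouse embryonic stem (ES) cells with and without induced Cre activity at the floxed Brg1 gene. A close pair was any 2 successive calls of a library on an autosome whose centres, the midpoints of start and end, were at least 80 and under 140 bp apart, which is less than the DNA of a nucleosome core. There were 24845 close pairs among 2702838 successive autosomal pairs, 11970 in the ethanol library and 12875 in the tamoxifen library. The members were chosen by the measured distance between centres, so their number, distance and width are given as a description. What the other library held at the same places was not used by the rule.

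The nucleosomes were profiled by MNase-seq, in which micrococcal nuclease digests linker DNA and leaves the DNA held by histones. All cells were of the genotype Brg1fl/fl with an Actin-CreER transgene, a tamoxifen-inducible Cre driven by an actin promoter, and were grown in serum and LIF. One group received ethanol, the vehicle, and the other tamoxifen at 0.8 µM, each over 24 hours, and both then had 48 hours in medium free of either. Both groups were thus floxed cells that carry CreER. For each, DNA of mononucleosome size was sequenced after digestion with 12 U of the nuclease. A group is represented by a single library, so the values below are descriptions of these 2 libraries without tests or replicates. Loss of Brg1 protein and the identity of the cells were not checked from these lists of nucleosome calls.

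A nucleosome core wraps its DNA around an octamer of histones, and neighbouring cores are normally set apart by linker DNA. A pair of centres closer than a core can arise in a population when different cells place the same nucleosome at alternative positions, or when neighbours meet with part of their DNA unwrapped. Brg1 supplies the ATPase activity of esBAF, which belongs to the SWI/SNF family of remodelers, and members of this family slide and evict nucleosomes. In work with purified components, sliding by such remodelers has also been seen to push a nucleosome into the DNA of its neighbour.

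Close pairs were rare in both libraries and made up nearly the same share of successive calls. They were 0.928% of the successive pairs with ethanol (Wilson interval 0.912 to 0.945%) and 0.911% with tamoxifen (0.896 to 0.927%). The calls that took part numbered 23888 and 25699, which is 1.85% and 1.82% of the autosomal calls. All intervals are 95%, cover counting error only and treat pairs as independent counts. The difference, tamoxifen minus ethanol, was -0.0171 percentage points, and its interval of -0.0399 to 0.0057 included 0. The sign of this difference was kept, but its size depended on list length. With only the highest-scored tamoxifen calls kept, as many as there are ethanol calls, the difference was -0.0947 points (interval -0.1175 to -0.0719); that step takes calls from between others and so breaks pairs. The full tamoxifen list had 9.58% more autosomal calls, 7.56% more close pairs and 11.9% more pairs at 140 to under 240 bp, the range that holds the usual spacing (regular pairs below). For every 100 regular pairs there were 6.67 close pairs with ethanol and 6.41 with tamoxifen. The number of sequencing reads behind either list is unknown.

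**Figure D1:**
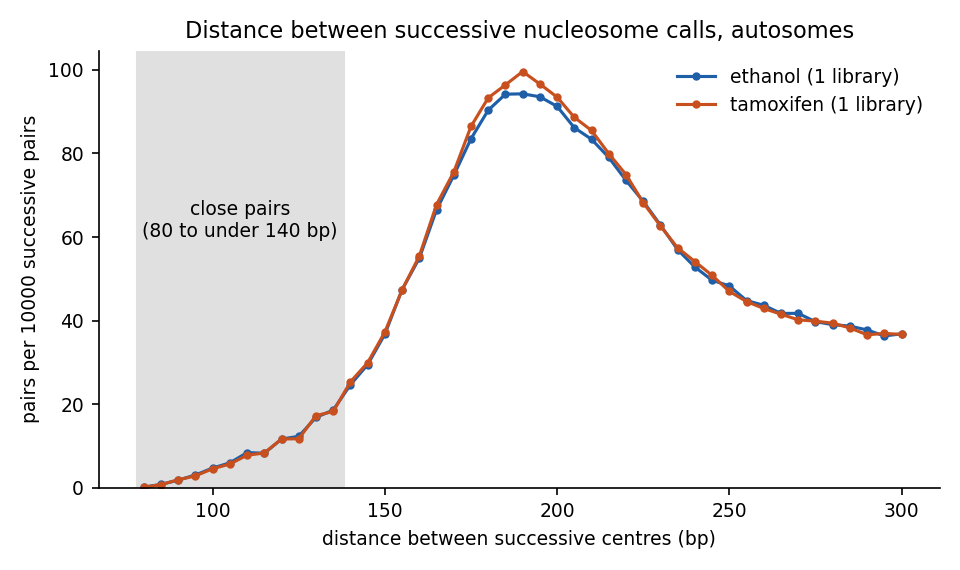
Number of successive autosomal pairs per 10000 at each distance between centres from 80 to 300 bp, in 5 bp steps, with 1 line for each library. Close pairs, in the shaded range, form the rising edge of the main peak at 190 bp, with no separate peak, and the libraries lie nearly on each other there.

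The close pairs had no clear peak of their own and became fewer towards the shortest distances. At 80 bp, the lowest distance that the width of the calls allows, there were 22 pairs in each library. At 100 bp there were 611 with ethanol and 646 with tamoxifen, at 120 bp 1505 and 1651, and at 135 bp, the last step inside the limit, 2401 and 2582. The single exception among the 5 bp steps was in the ethanol library, with 1087 pairs at 110 bp and 1068 at 115 bp. Just outside it, at 140 bp, there were 3181 and 3584. The numbers thus rose across the limit without a step. The most frequent distance of all was 190 bp, with 12158 and 14076 pairs.

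The excess of tamoxifen pairs was smaller at short distances than at the usual spacing. From 80 to under 100 bp the ratio of tamoxifen to ethanol pairs was 1.06 (807 and 763 pairs), and from 100 to under 120 bp it was also 1.06 (3733 and 3537). It was 1.09 from 120 to under 140 bp and 1.14 from 180 to under 200 bp. The autosomal calls as a whole stood at 1.10. In single 5 bp steps under 140 bp the ratio was uneven, from 1.0 at 80 bp to 1.14 at 90 bp, with 1.02 at 95 bp and 1.12 at 130 bp. The mean distance of close pairs was 120.3 bp (SD 12.9 across pairs) with ethanol and 120.5 bp (SD 12.8) with tamoxifen, a difference of 0.172 bp (interval -0.147 to 0.491).

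The calls in close pairs were narrow, as the rule requires of calls that never overlap within a list. Their mean width was 90.3 bp (SD 13.4 across calls) with ethanol and 90.5 bp (SD 13.8) with tamoxifen, against 102.2 bp in both libraries for regular pairs and 112.3 bp for all autosomal calls. Calls of 80 bp, the narrowest in either list, made up 44.3% and 44.5% of the members and 11.1% and 10.9% of all autosomal calls. From the start of the first call to the end of the second, a pair spanned 211 bp on average in each library. The calls touched, with no base between them, in 809 ethanol pairs (6.76%) and 865 tamoxifen pairs (6.72%). The other pairs had 10 to 50 bp between the calls, most often 40 bp, in 23.6% of the pairs of both libraries.

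Close pairs were made of calls with ordinary scores, and the scores within a pair were more alike than in pairs at the usual spacing. The authors' score of the calls had a median of 85.8 in each library (quartiles 65.3 and 119.5 in both), beside 86.0 for all autosomal calls. In regular pairs the medians were 94.0 and 92.2. The higher of the 2 scores was at least 2 times the lower in 14.2% of close pairs with ethanol and 14.0% with tamoxifen, against 30.3% and 29.3% of the regular pairs. The first call along the chromosome had the higher score in 50.7% of the ethanol pairs with unequal scores and in 49.1% of the tamoxifen pairs, so neither side stood out. The calls of each list were divided by score into 5 classes of about equal size. Calls of the highest class were members least often, 1.49% with ethanol and 1.50% with tamoxifen, while the other 4 classes lay between 1.73 and 2.10%. Of all close pairs, 9 and 8 held a call at the maximum score of 3250.

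Along the genome, chromosomes 8 and 12 carried the largest shares of close pairs in both libraries. On chromosome 8 they were 1.30% of successive pairs with ethanol (Wilson interval 1.23 to 1.36%) and 1.28% with tamoxifen (1.22 to 1.34%). On chromosome 12 the shares were 1.24% (1.17 to 1.31%) and 1.20% (1.14 to 1.27%). The other 17 autosomes ran from 0.738 to 0.967% in the ethanol library, and in the tamoxifen library from 0.757 to 0.936%. These 2 chromosomes held 16.8% and 16.7% of the autosomal calls but 23.0% and 22.8% of the close pairs. Regular pairs were found there as often, with 23.3% and 23.7% of them. For every 100 regular pairs there were 6.57 close pairs with ethanol and 6.17 with tamoxifen on these 2 chromosomes, and 6.69 and 6.48 on the other autosomes. The larger share was therefore not particular to close pairs. Between the libraries, the share was lower with tamoxifen on 13 autosomes and higher on 6, and the intervals overlapped on all 19. In absolute numbers, chromosome 1 had fewer close pairs with tamoxifen (658 with ethanol, 654 with tamoxifen), chromosome 17 had 496 in each, and the other 17 autosomes had more.

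**Figure D2:**
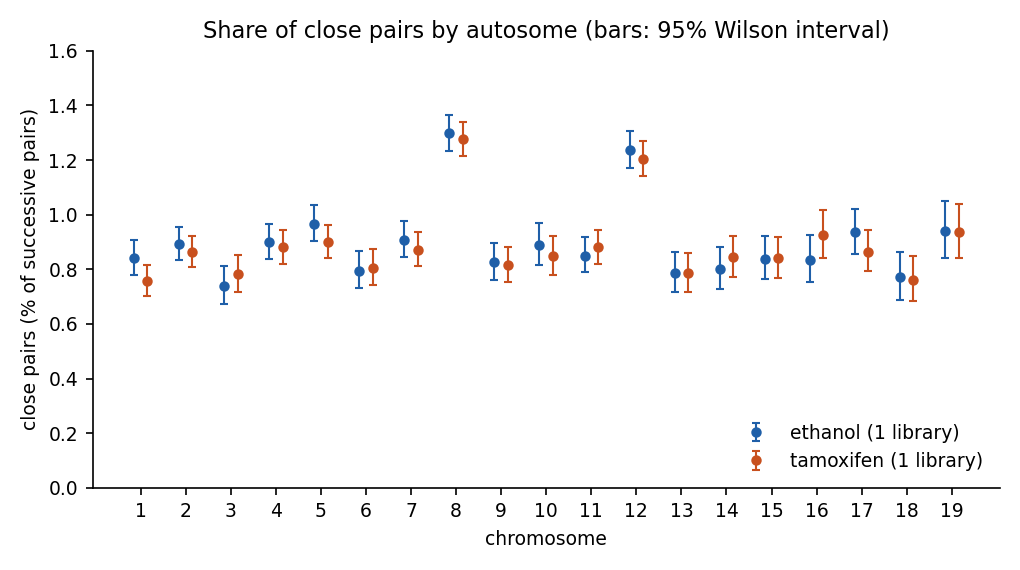
Close pairs as a percentage of successive pairs on each of the 19 autosomes, as points for the 2 libraries with 95% Wilson intervals. Chromosomes 8 and 12 lie above the others in both libraries, and the intervals of the libraries overlap on every autosome.

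Close pairs became more frequent where calls were dense, but less so than pairs at the usual spacing. Windows of 100 kb were ranked by their calls in both libraries and divided into 10 classes. The same calls form the pairs, so a rise of short distances with density follows from the ranking and is given as a description. In the sparsest class 0.332% of ethanol calls (61 pairs) and 0.407% of tamoxifen calls (92 pairs) began a close pair, and in the densest 1.25% (4423) and 1.24% (4578). For every 100 regular pairs, close pairs numbered 8.96 and 11.9 in the sparsest class and 5.59 and 5.33 in the densest. By windows of 1 Mb, the ethanol list had the most close pairs on chromosome 12 from 113000001 to 114000000 (mm9), with 50 among 2359 calls, where the tamoxifen list had 38 among 2408. Next came windows of chromosome 8 from 125000001 to 126000000, with 45 ethanol and 49 tamoxifen pairs, and from 122000001 to 123000000, with 43 and 35. The first of these was the highest with tamoxifen, followed on the same chromosome by 124000001 to 125000000 (42 tamoxifen and 35 ethanol pairs) and 123000001 to 124000000 (40 and 36). A window with any close pair held a median of 4 in each library.

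Most close pairs had no other close pair nearby. The next close pair started within 1000 bp for 1.35% of them with ethanol and 1.37% with tamoxifen. No measure of clustering that allows for their number was made. The median distance from a close pair to the next was 72605 bp and 71255 bp. Runs of 3 calls, each a close pair with the next, numbered 52 with ethanol and 51 with tamoxifen, and no run was longer. Of the ethanol runs, 25 had a single tamoxifen call and 17 had 2 between their outermost centres, with 40 bp added at each end. Of the tamoxifen runs, 27 and 19 had 1 and 2 ethanol calls. As the runs were tied in length, the run with the highest lowest score is given for each library, a choice made after the values had been seen. In the ethanol library it had centres at 140064921, 140065031 and 140065151 on chromosome 4, with scores of 1521.3, 1355.8 and 777.8, and the tamoxifen library had a single call there, at 140064936. In the tamoxifen library it had centres at 33932761, 33932866 and 33932976 on chromosome 8, and the ethanol library had 3 calls as well, at 33932761, 33932856 and 33932991.

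Both positions of a close pair were seldom called again in the other library. For each pair, the different calls of the other library within 40 bp of either centre were counted. Of the ethanol close pairs, 13.4% (Wilson interval 12.8 to 14.0%) had 2 tamoxifen calls, 58.3% had 1 and 28.4% (27.6 to 29.2%) had none. Of the tamoxifen close pairs, 11.2% (10.7 to 11.8%) had 2 ethanol calls, 57.3% had 1 and 31.4% (30.7 to 32.3%) had none. The 2 calls need not be a close pair themselves. The close spacing itself was found again for 4.83% of the ethanol and 4.49% of the tamoxifen close pairs. Regular pairs had 2 calls in the other library in 38.5% (ethanol) and 34.6% (tamoxifen) and none in 16.5% and 19.3%. With the close pairs displaced by 1000 to 10000 bp in 10 steps, 0.418 to 0.719% of the ethanol and 0.326 to 0.629% of the tamoxifen pairs met 2 calls. The close pairs thus lay well above this background of call density. Regular pairs displaced in the same way met 2 calls in 1.63 to 1.92% (ethanol) and 1.48 to 1.82% (tamoxifen). Their background was higher too, so the lower share of close pairs with 2 calls is not set against an equal base. The tamoxifen list is the longer one, and ethanol pairs had more to meet. With the tamoxifen list reduced to the size of the ethanol list as above, the order of the libraries turned, to 12.1% of ethanol and 12.4% of tamoxifen pairs with 2 calls and 30.4% and 29.4% with none. The shares also depend on the tolerance. Within 20 bp in place of 40, 7.21% and 6.13% had 2 calls and 50.1% and 52.3% had none.

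Single calls of close pairs were also met less often than calls in general. Over all autosomal calls, a partner within 40 bp was found for 57.0% of those with ethanol and 52.1% of those with tamoxifen. In ethanol close pairs this held for 49.5% of the higher-scored and 35.7% of the lower-scored calls, against 69.5% and 52.6% in regular pairs. In tamoxifen close pairs it held for 46.9% and 33.3%, against 66.5% and 49.0%. Since calls in a list do not overlap, the 2 partners of a pair must be at least 80 bp apart, which leaves less room around the shortest pairs. The share with 2 partners was higher at longer distances, from 3.67% at 80 to under 100 bp to 9.30% at 100 to under 120 bp and 16.2% at 120 to under 140 bp with ethanol, and from 3.72% to 7.61% and 13.6% with tamoxifen. At 140 to under 150 bp, just outside the limit, it was 23.0% and 20.7%.

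Close pairs had 2 partners less often than regular pairs within each score class and among narrow calls too. The limited room around short pairs applies to all these values. When the lower score of the ethanol pair was in the lowest of the 5 score classes, 7.71% of close pairs and 24.1% of regular pairs had 2 tamoxifen calls. In the highest class the shares were 28.6% (Wilson interval 25.8 to 31.6%) and 71.2%. For tamoxifen pairs they went from 5.81% and 20.2% in the lowest to 27.0% (24.4 to 29.8%) and 69.8% in the highest class. Among pairs with both calls 100 bp wide or narrower, 13.2% of ethanol and 11.1% of tamoxifen close pairs had 2 partners, against 41.3% and 37.5% of such regular pairs. On chromosomes 8 and 12, 15.6% of ethanol and 13.2% of tamoxifen close pairs had 2 partners, against 12.7% and 10.6% on the other autosomes together. Regular pairs were likewise higher there, at 45.3% and 40.3%, against 36.4% and 32.8% elsewhere.

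**Figure D3:**
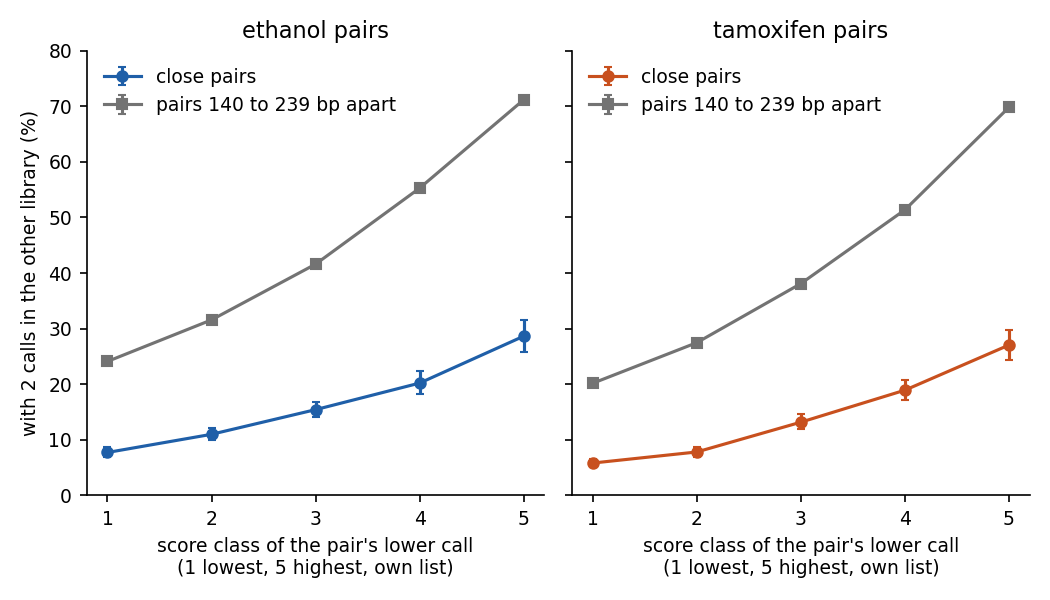
Percentage of pairs with 2 calls in the other library, by score class of the lower-scored call, for close pairs and for regular pairs, with 95% Wilson intervals. In both libraries the share rises with score in each kind of pair, and close pairs stay below in all 5 classes.

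Many close pairs corresponded to a single broad nucleosome call in the other library. A tamoxifen call reached over both centres of 1732 ethanol close pairs, 14.5% (Wilson interval 13.9 to 15.1%), against 1.14 to 1.33% after displacement. An ethanol call did so for 1950 tamoxifen close pairs, 15.1% (14.5 to 15.8%), against 1.06 to 1.35%. These calls had mean widths of 178 and 176 bp. The share was highest for the closest pairs, 29.0% with ethanol and 28.7% with tamoxifen at 80 to under 100 bp, and was 10.8% and 11.2% at 120 to under 140 bp. At 140 to under 150 bp it was 4.98% and 5.77%. A longer distance needs a wider call to reach over it, which by itself lowers the share. Touching pairs were covered in 23.1% and 22.3% of cases and the other close pairs in 13.8% and 14.6%. Touching pairs were also shorter, with mean distances of 100.5 and 101.2 bp against 120.3 and 120.5 bp for all close pairs. Whether touching matters apart from distance was not tested. Pairs in the ethanol list under a broad tamoxifen call and pairs in the tamoxifen list under a broad ethanol call were thus found at similar rates.

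Among the remaining close pairs, the share with a call at 1 centre was near that of regular pairs. The pairs were set aside by what the other library held, so the remainders compared were chosen by the outcome. With pairs that had 2 partners or a covering call set aside, 8639 ethanol and 9481 tamoxifen pairs were left. Of these, 73.1% and 70.1% had a call of the other library within 40 bp of 1 centre, near the 73.7% and 71.2% of regular pairs treated the same way. A further 10.3% and 9.61% had their nearest call at 41 to 100 bp, against 10.7% and 10.4% of the regular pairs left. No call lay within 100 bp of 16.6% (interval 15.8 to 17.4%) and 20.3% (19.5 to 21.1%). For regular pairs this was lower, at 15.6% (15.4 to 15.8%) and 18.4% (18.2 to 18.6%). Over all close pairs, the 3 groups were 52.8%, 7.40% and 12.0% with ethanol and 51.7%, 7.08% and 14.9% with tamoxifen. Only the last group lacked any call of the other library nearby. Nucleosomes that did not pass the authors' cutoffs are in neither list, so a position without a call may still hold one.

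**Figure D4:**
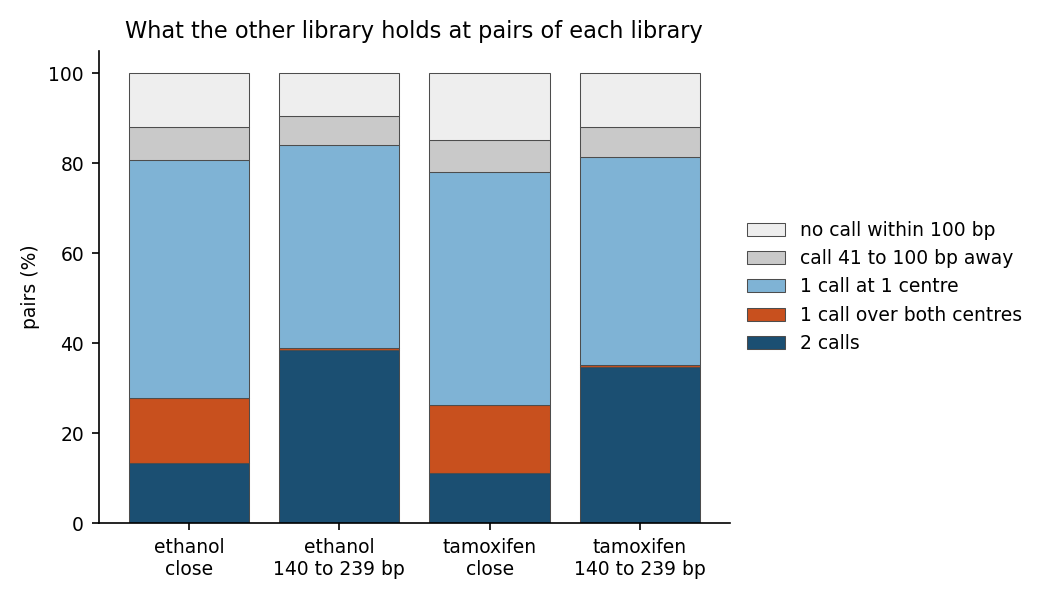
Stacked percentages of close pairs and of regular pairs by what the other library holds there, for pairs of each library. Single calls over both centres make up 14.5% and 15.1% of close pairs and under 1% of the regular pairs, and pairs with 2 partners are fewer among close pairs.

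When the other library had a single call, it lay more often nearer to the higher-scored than to the lower-scored centre. Among pairs with unequal scores and 1 partner, the partner was nearer to the higher-scored centre in 61.9% (Wilson interval 60.7 to 63.0%) of 6749 ethanol pairs and 61.9% (60.8 to 63.0%) of 7160 tamoxifen pairs. For pairs whose higher score was at least 2 times the lower the shares were 77.1% and 77.7%. Where the scores differed by less than 1.4 times, they were 54.3% and 54.0%. In regular pairs the partner was nearer to the higher-scored centre in 68.8% and 69.0%. The single partner also leaned inwards. It was centred between the 2 positions in 59.1% of ethanol and 60.0% of tamoxifen cases and outside them in 31.9% and 31.3%, against 47.6% and 48.7% inside for regular pairs. These pairs were kept for having 1 partner, and calls in a list do not overlap. An inner call leaves less room for a second call near the other centre, more so in close than in regular pairs. That by itself favours inner positions, and whether the lean goes beyond it was not tested. Partners between the centres averaged 119.6 and 120.6 bp in width and those outside 105.6 and 104.8 bp.

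Pairs without a partner within 40 bp often had a call of the other library between their centres. One of any width lay there in 1608 of the 3398 ethanol pairs (47.3%) and 1784 of the 4049 tamoxifen pairs (44.1%). Such a call was no more particular to close pairs as a whole. It lay between the centres of 53.6% of all ethanol and 53.5% of all tamoxifen close pairs, and of 54.0% and 52.5% of regular pairs. A call 150 bp wide or wider lay there in 1003 ethanol (29.5%) and 1122 tamoxifen pairs (27.7%). Such wide calls were 62.4% and 62.9% of the calls between the centres, whereas 14.8% of all tamoxifen and 15.0% of all ethanol autosomal calls were. Of the calls between the centres of regular pairs and over 40 bp from both, 24.9% (ethanol pairs) and 26.7% (tamoxifen pairs) were as wide. Regular pairs leave more room there for narrow calls. At 621 ethanol pairs (18.3% of those without a partner) and 931 tamoxifen pairs (23.0%) the other library had no call within 500 bp. Pairs without a partner had lower scores than those with 2, with median higher scores of 92.7 against 128.7 in the ethanol list and 92.0 against 133.9 in the tamoxifen list.

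Where both positions were called again, the distance in the other list is given as a description, since the pairs were chosen for a short distance in their own list. A longer distance in the other list follows from that choice in either direction. The 1599 ethanol pairs with 2 partners had a mean distance of 124.8 bp, and their tamoxifen partners were 144.2 bp apart, a change of 19.4 bp (SD 20.5 across pairs). The distance was larger in 78.3%, equal in 7.32% and smaller in 14.4%. Taken from the tamoxifen side, 1444 pairs went from 124.8 bp to 142.3 bp between the ethanol partners, a change of 17.4 bp (SD 20.3), with 75.9% larger. In addition, no centres of a list lie under 80 bp apart, which leaves little room for a shorter distance. For regular pairs the mean changes were 2.02 and 2.09 bp (SD 20.9 and 21.1). A set of 578 pairs was close in both libraries, which is 4.83% of the ethanol and 4.49% of the tamoxifen close pairs. Their mean distance was 121.2 bp in the ethanol list, and in the tamoxifen list it was 121.6 bp. Their scores were above those of close pairs at large, with medians of 101.8 and 112.4. The higher-scored position was the same in both libraries in 62.0% (59.5 to 64.4%) of the ethanol and 62.5% (59.9 to 65.0%) of the tamoxifen pairs with 2 partners, beside 67.2% for regular pairs in each direction.

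Individual pairs show the 3 situations. They were taken by rule as the 3 pairs with the highest lower score in each library and class, leaving out calls at the maximum score, and all positions are centres on mm9. Both positions were called in both libraries on chromosome 17 at 10207566, with scores of 1631.7 at the first and 2311.3 at the second ethanol centre, 10207691. The tamoxifen calls there were at 10207566 and 10207681, with scores of 1333.4 and 2008.4, so the pair was 125 bp apart with ethanol and 115 bp with tamoxifen, and it ranks among the 3 highest in both lists. On chromosome 18 the tamoxifen pair at 13455061 and 13455191, 130 bp apart, had ethanol calls at the same 2 centres. Other pairs kept both positions at a longer distance. The ethanol pair at 19724491 and 19724626 on chromosome 8, 135 bp apart, had tamoxifen partners 155 bp apart, at 19724471 and 19724626. The ethanol pair at 19931656 and 19931766 on chromosome 8, 110 bp apart, had partners 135 bp apart, at 19931646 and 19931781. The tamoxifen pair at 136951476 and 136951601 on chromosome 6, 125 bp apart, had ethanol partners farther apart, at 136951461 and 136951606.

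In the named pairs with 1 partner, the single call of the other library lay at or beside 1 of the 2 centres. On chromosome 17 the ethanol calls at 3352956 and 3353081 (scores 1729.4 and 1806.0) faced a tamoxifen call at 3353071, beside the second. On chromosome 8 the ethanol calls at 22922981 and 22923116 faced a tamoxifen call at 22923121, again beside the second. Also on chromosome 8, those at 56199216 and 56199331 faced a call at 56199226, beside the first. In the other direction, the tamoxifen calls at 3059391 and 3059501 on chromosome 11 (scores 3213.8 and 3132.4) had an ethanol call at exactly the first centre. Those at 7469671 and 7469801 on chromosome 14 had an ethanol call at exactly the second. Those at 33076621 and 33076751 on chromosome 5 had an ethanol call at 33076756.

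In 5 of the 6 named pairs with no partner within 40 bp, a single wide call at the maximum score lay between the centres. These pairs were chosen for high scores and do not stand for their class. Over all pairs without a partner, a call 150 bp wide or wider lay there in 29.5% (ethanol) and 27.7% (tamoxifen). The ethanol pair on chromosome 8 at 13960366 and 13960496 (scores 1729.4 and 1189.5) faced a tamoxifen call 210 bp wide, centred at 13960426. On chromosome 7 the ethanol calls at 67026581 and 67026686 faced a tamoxifen call 160 bp wide at 67026641. On chromosome 1 those at 85280701 and 85280821 faced a tamoxifen call 180 bp wide at 85280751. With tamoxifen, the pair on chromosome 2 at 77731886 and 77732021 (scores 2952.0 and 2562.9) faced an ethanol call 220 bp wide at 77731951. The pair on chromosome 1 at 85083021 and 85083131 faced an ethanol call 170 bp wide at 85083066. The remaining pair, the tamoxifen calls at 19957561 and 19957661 on chromosome 8, had its nearest ethanol call 300 bp from the second centre, at 19957961.

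Calls outside a close pair were most frequent near the usual spacing from the nearer member of the pair. Counted outwards from the higher-scored centre, in windows of 30 bp moved by 5 bp, calls of the same list were most frequent at 190 bp with ethanol, where there were 6.02 calls per 100 pairs (Poisson interval 5.59 to 6.49), and at 200 bp with tamoxifen (6.13, interval 5.70 to 6.58). Outwards from the lower-scored centre the peaks were at 195 bp (5.07, interval 4.67 to 5.50) and 205 bp (4.80, interval 4.42 to 5.20). In regular pairs the peaks were at 190 to 195 bp and higher, from 7.85 to 8.46 per 100 pairs. The calls of the other library, which the rule did not use, peaked at 195 bp from the higher-scored centre of both kinds of close pair, and at 215 bp (ethanol pairs) and 205 bp (tamoxifen pairs) from the lower-scored centre. Positions of these peaks are read to 5 bp and rest on 498 to 764 calls each, so the differences between the libraries are not resolved. Measured from the higher-scored centre, the flanking peaks of the ethanol pairs therefore lay at 190 bp on one side and at 320 bp on the other, beyond the lower-scored call.

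**Figure D5:**
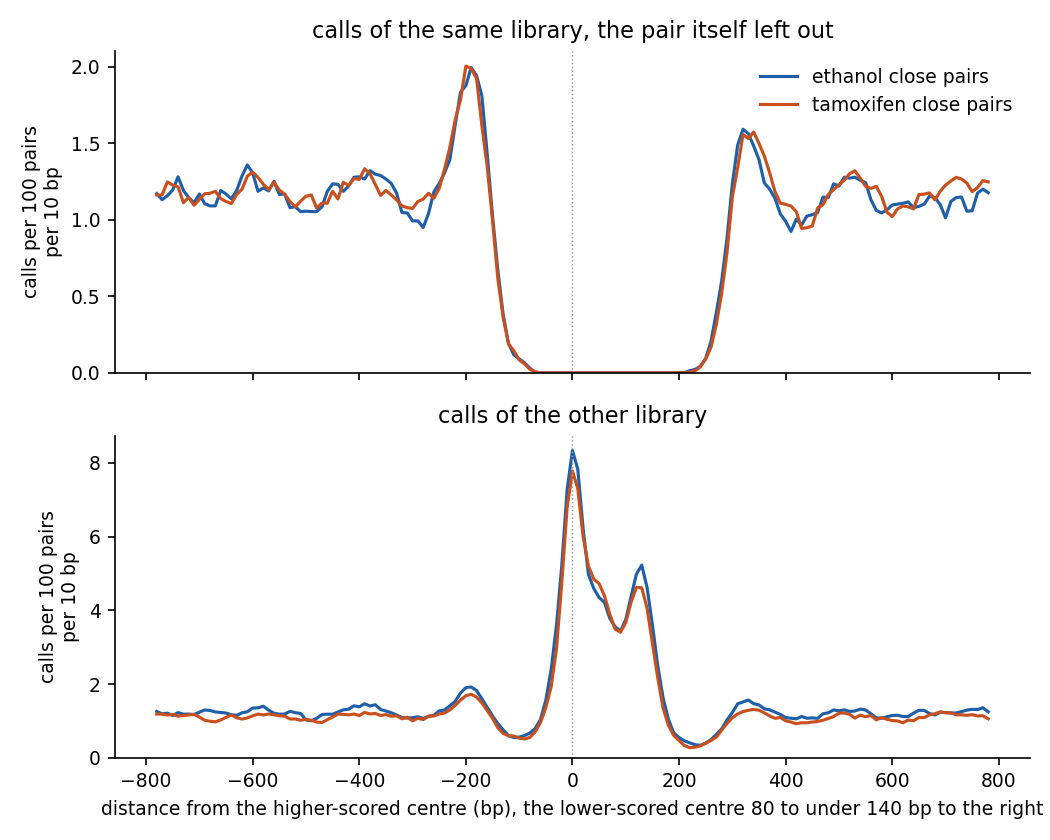
Calls per 100 close pairs in 10 bp bins, smoothed over 30 bp, by distance from the higher-scored centre, with the lower-scored centre to the right. The upper panel shows calls of the same list without the pair, with peaks at -190 and 320 bp for ethanol and -200 and 340 bp for tamoxifen. The lower panel shows calls of the other library, highest at the higher-scored centre, with a second maximum at the lower-scored one and calls between them.

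The ordered surroundings were weaker around close pairs than around pairs at the usual spacing. The peak outwards from the higher-scored centre was 2.11 times the lowest value between 240 and 320 bp with ethanol and 1.94 times with tamoxifen, against 2.60 and 2.97 times for regular pairs. From the lower-scored centre it was 1.81 and 1.71 times, against 2.82 and 3.09 times. The next call outside a close pair was 140 to under 240 bp away in 13.7% of cases with ethanol and 13.5% with tamoxifen, close to the 13.9% and 14.2% of all successive pairs and below the 19.3% and 19.8% around regular pairs. On the side of the higher-scored call it was 15.8% and 15.6%, and on the side of the lower-scored call 11.7% and 11.5%. The next call was itself at the distance of a close pair for 0.435% of outer neighbours with ethanol and 0.396% with tamoxifen. These shares were below the 0.928% and 0.911% of all successive pairs and the 0.916% and 0.868% around regular pairs. In 18.2% and 17.5% of close pairs no other call lay within 1000 bp of either outer side, against 13.9% and 13.0% of regular pairs.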

How the data were processed

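Each library came as a list of called nucleosomes with start, end, name and the authors' score per call, per the files; the score's definition is not given in the sources used here, and it ran from 50.1 to 3250 in both deposited lists. The deposited positions lie on a 10 bp grid of mm9. Per the submitters' processing notes, reads were aligned with Bowtie 0.12.9. The caller, its cutoffs and the handling of duplicates are likewise not given. Groups were taken from the titles.

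The lists held 1300009 and 1424844 calls. Those on the 19 autosomes were sorted by start, successive centres were compared, and calls of the other library were sought within 40 bp, also after displacement as a background level. The score served to rank calls within a list. The close pairs, comparison ranges and alternatives were chosen with earlier results of these data known. The comparison with covering calls, the account of flanking peaks and the leaving out of touching pairs were added after the data had been seen. Named regions were, per library, the 3 highest-scored pairs for 0, 1 and 2 partners, the longest run and 3 windows of 1 Mb. No sequence or gene is given, since the tables at hand are on another build. The pair search was tested on simulated data. Tables were handled with pandas 2.3.3 and numpy 2.4.6 under Python 3.11.15, intervals came from scipy 1.17.1 and plots from matplotlib 3.10.9.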

Additional observations from a re-analysis of the deposited data

Results flagged for a closer look

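Close pairs also appeared on chromosome X, which the autosomal comparisons leave out. There were 90 with ethanol (Poisson interval 72.4 to 110.6) among 9935 calls and 95 with tamoxifen (76.9 to 116.1) among 11234 calls. They made up 0.906% (Wilson interval 0.738 to 1.11%) and 0.846% (0.692 to 1.03%) of the successive pairs there, shares that lie within the range of the autosomes other than chromosomes 8 and 12.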

How the results depend on the processing

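No paired analysis was possible because there is only 1 library per treatment. Of 46 alternatives to 9 results, 23 stayed within the counting interval and 23 moved beyond it. The 3 differences between the libraries kept their sign in their alternatives, and the other 6 results are percentages, which have no sign. Leaving out chromosomes 8 and 12 moved pairs with 2 partners to 12.7% (ethanol) and 10.6% (tamoxifen) and tamoxifen pairs with none to 32.6%. Keeping calls at or above the median score moved ethanol pairs with none to 29.7%, tamoxifen pairs with 2 to 12.4%, covered pairs to 17.0% and 16.8%, and the width difference from 0.156 to 0.455 bp. Keeping only as many of the highest-scored tamoxifen calls as there are ethanol calls, which breaks pairs by construction, moved the difference in close-pair share from -0.0171 to -0.0947 points and the width difference to 0.436 bp. It moved pairs with 2 partners to 12.1% and 12.4%, and pairs with none to 30.4% and 29.4%, which turned the order of the libraries in both. Limited to under 120 bp, 8.30% and 6.92% had 2 partners and 21.0% and 22.4% were covered. Matching within 20 bp left 7.21% and 6.13% with 2 partners and 50.1% and 52.3% with none. Without touching pairs, 13.8% of ethanol pairs were covered. Where the construction does not show it, the cause was not tested. Read depth is unknown, and a longer list offers more partners.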
